A study of Danio rerio with 3 samples.

Results

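Sugar transport, glycolysis and gluconeogenesis were followed across 3 diets in the intestine of zebrafish (Danio rerio). The set held 55 of the 32519 gene identifiers measured: 38 named genes, from the sodium-coupled glucose carrier slc5a1 to the enzyme pair pfkfb1 and pfkfb3, and all 17 genes whose symbol starts with slc2a. Healthy adult fish, 6 to 9 months old, were kept for 8 weeks on commercial feed (Tetramin), which was the control diet, or on granules of which 50% was fruit pulp of Cavendish banana or of Fe'i banana and the rest Tetramin. All groups received 4% of body weight in feed a day, and on day 56, after a fast of 24 hours, the intestine was collected. Strain, sex, the number of fish per library and the length of gut sampled are not stated in the labels. Each diet has 1 poly(A) RNA library, sequenced in paired reads of 150 bases, so no difference between diets has a replicate check and no p-value was computed.

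Dietary glucose enters the enterocyte from the gut lumen through a sodium-coupled carrier at the brush border, fructose enters through a carrier of the slc2a (GLUT) family, and both can leave towards the blood through another member of that family. Hexokinases trap glucose as glucose 6-phosphate and ketohexokinase traps fructose. Glycolysis then breaks the sugar phosphates down to pyruvate, lactate dehydrogenase links pyruvate to lactate, and gluconeogenesis runs back towards glucose through 4 bypass enzymes, of which phosphoenolpyruvate carboxykinase and glucose 6-phosphatase are the best known. Most steps are shared by several paralogs, which in mammals differ by tissue.

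Levels are given as scaled FPKM, that is the deposited fragment density of a gene (per kilobase, relative to the mapped library), divided by 1 factor per library so that the median gene has a ratio near 1 between libraries. Values after ± are half-widths of the deposited 95% interval, which covers counting and read assignment within 1 library and not differences between fish. Ratios are differences of log2(scaled FPKM + 1) and understate the change of low genes. A gene was called higher or lower when this difference was at least 1 in size (2-fold), the higher library had 1 FPKM or more and the intervals of both libraries did not overlap. Of the 55 genes, 43 reached 1 FPKM in at least 1 library and were tested in this way; 38 of them did so in all 3 libraries and 4 in 1 library alone (slc2a1b and aldoab in the Cavendish library, slc2a11a and tpi1a in the Fe'i library). The 12 that did not were slc2a1a, slc2a3a, slc2a10, slc2a15a, slc2a15b, slc2a11l, slc2a11b, slc2a9l1, gpib, pfkma, pfkmb and aldoca. Of these slc2a15a, slc2a11b and slc2a9l1 were listed at 0 in all 3 libraries.

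The libraries differed in depth: as read from the deposited intervals, the Cavendish library was the deepest, at 1.27 times the control, and the Fe'i library the shallowest, at 0.816 times. A tested member rested on a median of 439, 777 and 378 effective fragments on control feed, Cavendish and Fe'i, against 147, 180 and 115 for all tested genes. The enterocyte markers were present throughout: their summed level over 14 genes was 37776, 22909 and 23554 scaled FPKM, highest in the control, with apoa1a and fabp1b.1 the most abundant. Markers of neighbouring organs differed between the libraries. Those organs also use many of the sugar genes, and their part in the levels of these genes was not tested. Liver markers (20 genes, none at 0) summed to 9121, 16653 and 32762 scaled FPKM on control feed, Cavendish and Fe'i. Endocrine pancreas markers (13 genes) summed to 371, 3223 and 1002, exocrine pancreas markers (18 genes) to 51865, 148887 and 48695 and smooth muscle markers (11 genes) to 385, 1274 and 491. In the endocrine list insb was at 0 in the control and Cavendish libraries. The Cavendish library was thus highest in both pancreas lists and in smooth muscle, and the Fe'i library in liver. Markers of lysosome-rich enterocytes (9 genes) were highest in the Fe'i library, at 13486, 9918 and 28648. Leukocyte markers (13 genes) were at 537, 243 and 374, of which the macrophage marker mfap4 alone made up 324, 17.2 and 179. Skeletal muscle markers (21 genes) were at 37.7, 56.0 and 8.82, neuron markers (12 genes) at 10.7, 15.7 and 6.40 and egg markers (16 genes) at 8.79, 5.08 and 107. In RNA from whole tissue, fewer cells of a type and less RNA per cell cannot be told apart.

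**Figure D1:**
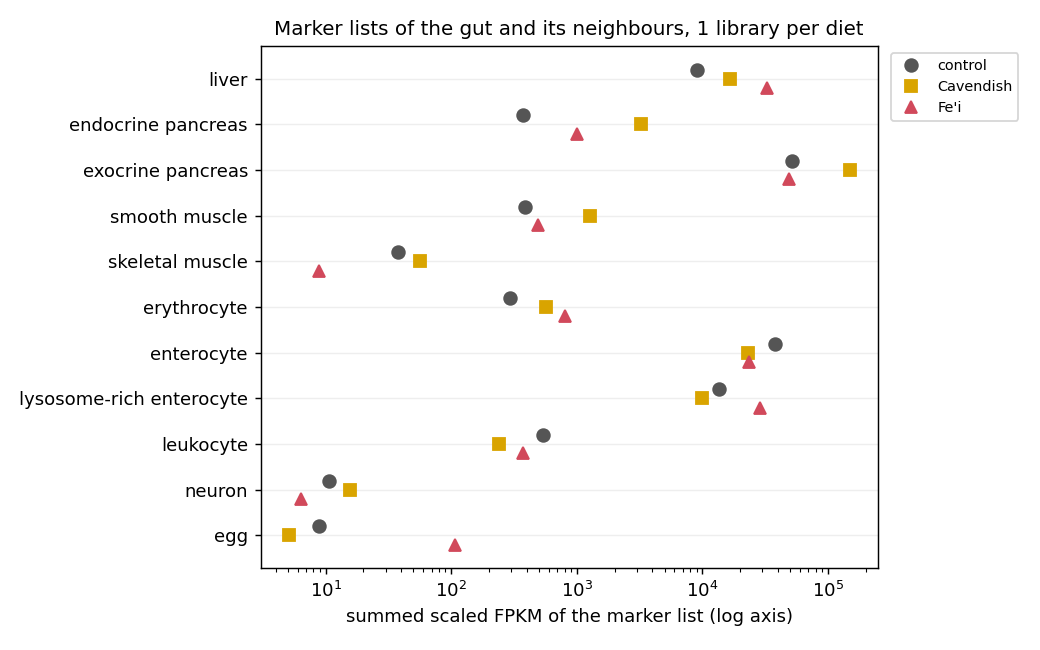
Summed scaled FPKM (log axis) of 11 marker lists on control feed, Cavendish and Fe'i, 1 symbol per library. Liver markers are lowest in the control and highest in the Fe'i library, while both pancreas lists and smooth muscle are highest in the Cavendish library.

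Against the control feed, the Cavendish library had 6 sugar genes called higher, gck, hk1, aldocb, eno1a, pfkfb3 and slc2a3b, and 1 called lower, pfkla. These are 14.0% and 2.33% of the 43 tested, where the same rule called 5.66% of all 14061 tested genes higher and 1.65% lower. The Fe'i library had 6 called higher, ldhbb, g6pca.1, pklr, slc2a8, slc2a11a and tpi1a, and 2 called lower, pck1 and slc2a12; these are 14.0% and 4.65%, beside a background of 4.93% and 1.79%. With TPM scaling the Cavendish split became 2 higher, gck and hk1, and 3 lower, pfkla, khk and pck1, while that of the Fe'i library was 5 and 2. Both comparisons share the control library, so its own error enters each ratio. The shares were not tested against the background. The members were chosen with earlier results of these data known. Their median of effective fragments was also above that of all tested genes in each library.

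**Figure D2:**
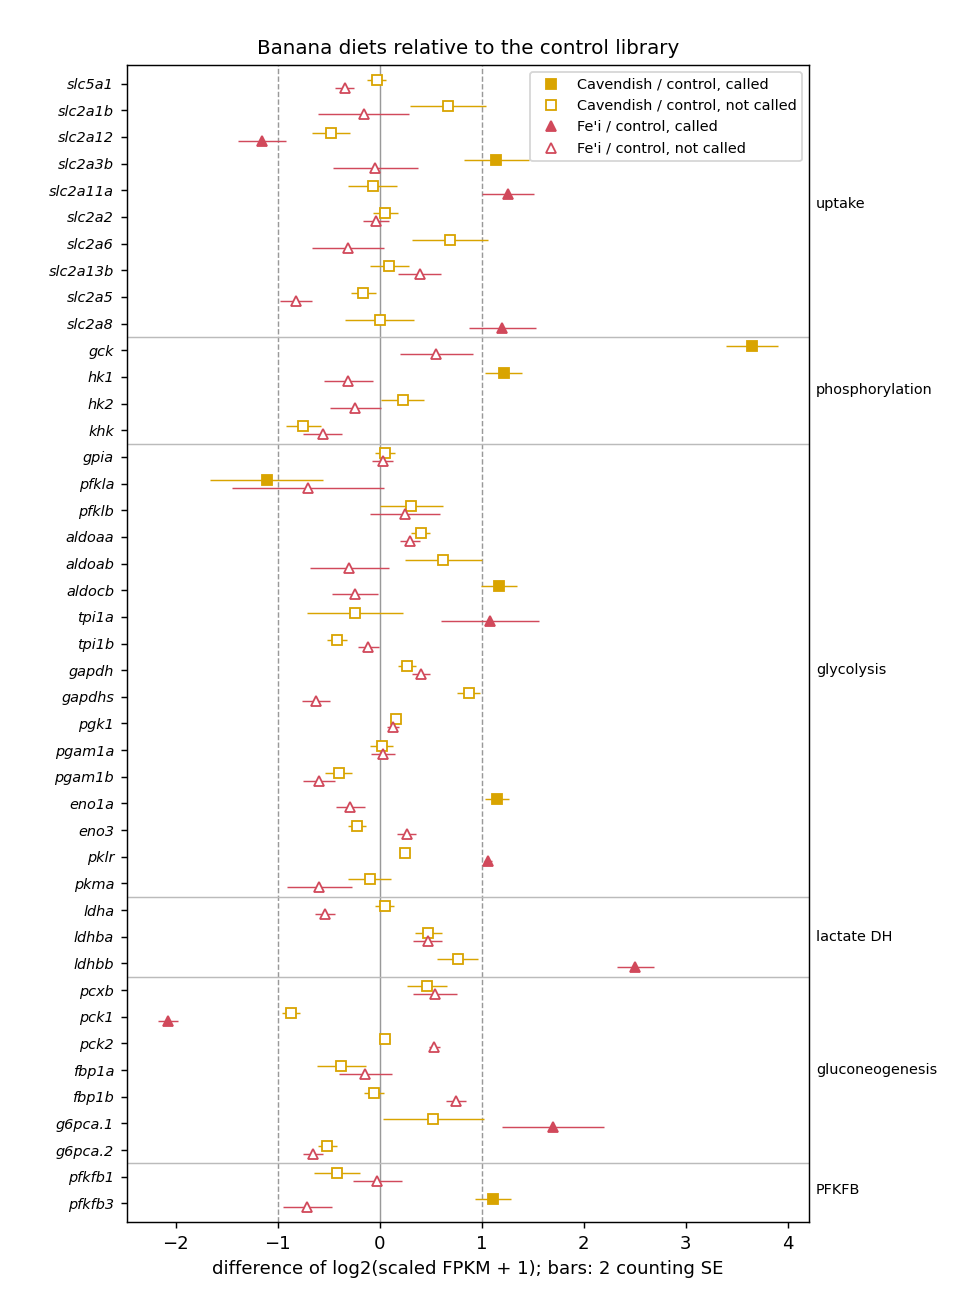
Difference of log2(scaled FPKM + 1) between each banana library and the control for the 43 tested genes in pathway order, with bars of 2 counting SE; filled symbols are called and dashed lines mark 2-fold. The largest differences are gck at 3.65 in the Cavendish library and ldhbb at 2.505 and pck1 at -2.08 in the Fe'i library.

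The main sugar carriers of the gut differed from the control by less than 2-fold on both banana diets, while 4 scarcer carriers were called on 1 diet each. slc5a1 (chromosome 10, 17135631 to 17159761 in GRCz11), which encodes the sodium-coupled glucose carrier, was the most abundant carrier, at 315 ± 14.0 on control feed, 308 ± 13.6 on Cavendish and 247 ± 11.5 on Fe'i. The Cavendish and control intervals overlapped, and the Fe'i value lay below both, by less than the 2-fold threshold. slc2a2, the GLUT2 carrier through which glucose passes between cell and blood, was at 38.8 ± 2.40 on control feed, 40.3 ± 2.37 on Cavendish and 37.8 ± 2.59 on Fe'i, with all 3 intervals overlapping. slc2a5 (chromosome 23, 22616063 to 22633136), named for the fructose carrier GLUT5, was at 28.6 ± 1.78 on control feed, 25.5 ± 1.55 on Cavendish and 15.8 ± 1.52 on Fe'i. The Fe'i library was the lowest, at a log2 ratio of -0.82 (counting SE 0.08) to the control, short of the threshold.

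Among the other slc2a genes, slc2a12, a GLUT12 carrier, stood at 13.4 ± 1.28 on control feed, 9.37 ± 0.978 on Cavendish and 5.48 ± 0.904 on Fe'i. None of these intervals overlapped, the order ran from control to Cavendish to Fe'i, and the Fe'i value was called lower at -1.15 (counting SE 0.12). slc2a8, whose mammalian counterpart GLUT8 sits on internal membranes, was at 1.74 ± 0.465 on control feed, 1.74 ± 0.436 on Cavendish and 5.31 ± 0.937 on Fe'i; it was called higher in the Fe'i library alone, at 1.203 (counting SE 0.16). The remaining tested carriers stayed under 5 scaled FPKM in every library. slc2a3b, a paralog of the high-affinity carrier GLUT3, was at 1.31 ± 0.430 on control feed, 4.09 ± 0.611 on Cavendish and 1.24 ± 0.490 on Fe'i and was called higher in the Cavendish library. slc2a11a was at 0.616, 0.541 and 2.86 on control feed, Cavendish and Fe'i and was called higher in the Fe'i library, where alone it reached 1 FPKM; its locus overlaps that of tgfa, listed at 0.208 scaled FPKM or less. slc2a1b, slc2a6 and slc2a13b, related to GLUT1, GLUT6 and the inositol carrier HMIT, lay between 0.611 and 2.23 and were not called against the control. Of the 10 tested carriers 1 was called higher and 0 lower on Cavendish (10%, median log2 ratio 0.03). On Fe'i 2 were called higher and 1 lower (30%, median -0.10). Of all tested genes 7.31% and 6.72% were called, with medians of 0.02 and 0.01. The calls of slc2a3b, slc2a8, slc2a11a and slc2a12 were lost with a pseudocount of 5. Those of slc2a3b and slc2a11a were also lost with a minimum of 5 FPKM, and that of slc2a3b with TPM scaling. Each ratio kept its sign.

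**Figure D3:**
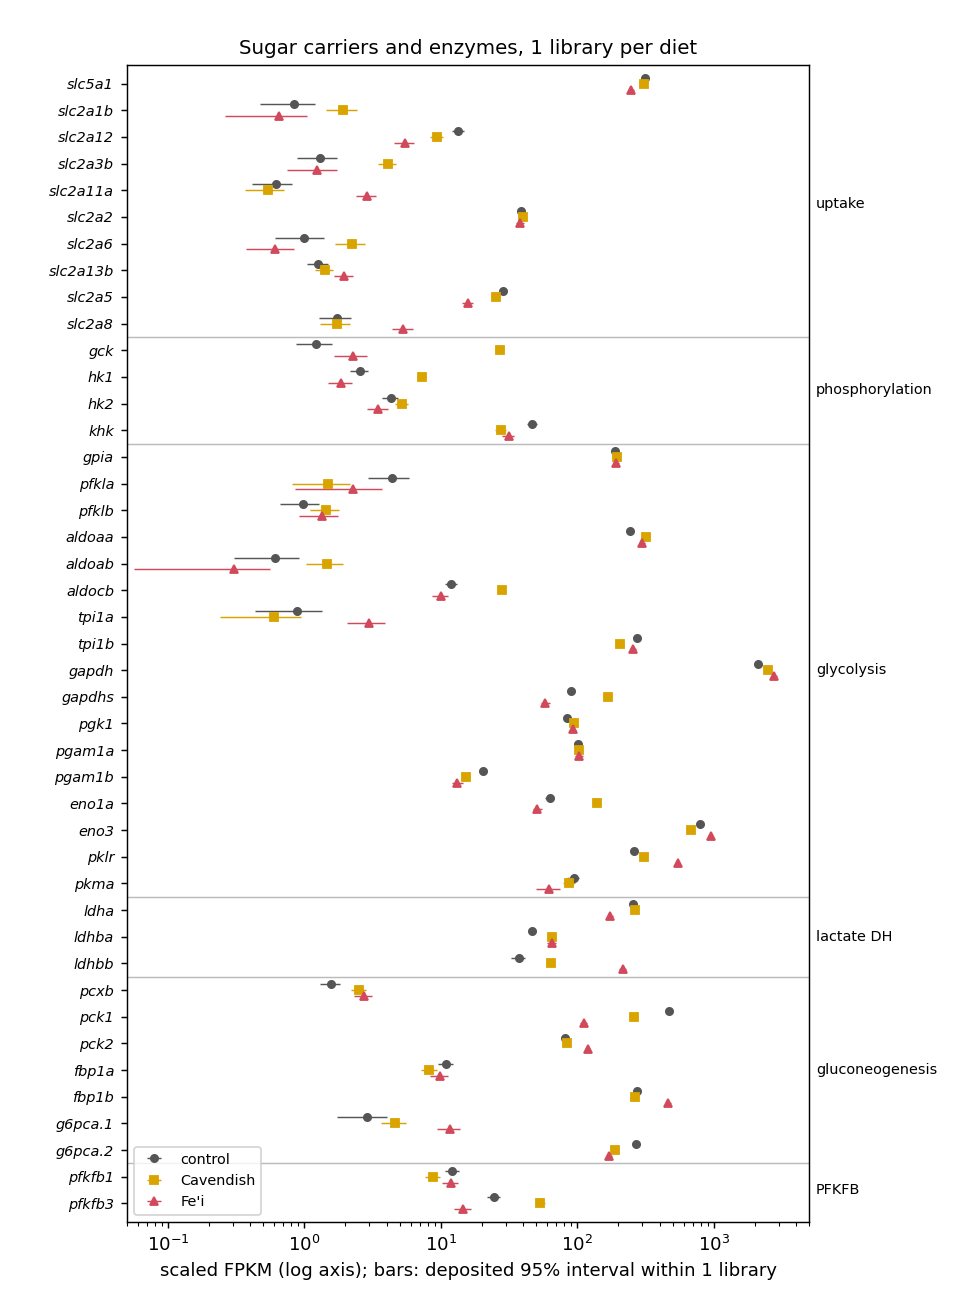
Scaled FPKM (log axis) of the 43 tested genes in pathway order in each library, with the deposited 95% interval as bars. gpia, pgk1 and pgam1a lie close together in all 3 libraries, whereas gck stands apart in the Cavendish library, and ldhbb and pck1 in the Fe'i library.

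Sugar phosphorylation showed the largest single difference of the pathway. gck (chromosome 8, 40476811 to 40490593) encodes glucokinase, the hexokinase of low affinity that in mammals works in liver and pancreatic islets. It was at 1.23 ± 0.365 on control feed, 27.0 ± 1.84 on Cavendish and 2.26 ± 0.608 on Fe'i, so that the Cavendish value stood far above both others, with a log2 ratio to the control of 3.65 (counting SE 0.13). The Fe'i interval did not overlap that of the control, but the ratio of 0.55 was below the threshold. Islet, exocrine pancreas, smooth muscle, skeletal muscle and neuron markers were also highest in the Cavendish library in summed level. Against the control, 6 of 8 tested islet, 15 of 18 exocrine pancreas and 7 of 10 smooth muscle markers were called higher there. For skeletal muscle this was 3 of 10 and for neuron 1 of 4. Of the islet markers, ins (insulin) was at 233, 2307 and 633 scaled FPKM on control feed, Cavendish and Fe'i. Liver markers were highest in the Fe'i library. gckr, which encodes the liver protein that binds glucokinase, was at 7.29 ± 1.25, 5.25 ± 0.984 and 10.0 ± 1.70. The part of islet, liver or other tissue RNA in the gck level was not tested.

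hk1, a hexokinase of high affinity found in most tissues, was at 2.54 ± 0.374 on control feed, 7.22 ± 0.579 on Cavendish and 1.87 ± 0.367 on Fe'i and was called higher in the Cavendish library at 1.21 (counting SE 0.09), a call lost with a pseudocount of 5. hk2, the second such enzyme, was at 4.29 ± 0.578 on control feed, 5.19 ± 0.601 on Cavendish and 3.48 ± 0.593 on Fe'i, with a ratio of 0.23 for Cavendish and -0.24 for Fe'i. Most hexokinase RNA of the control came from a paralog outside the set, hkdc1, at 36.4 ± 1.56 on control feed, 32.8 ± 1.38 on Cavendish and 40.5 ± 1.91 on Fe'i. Its share of the summed FPKM of gck, hk1, hk2 and hkdc1 was 81.9%, 45.5% and 84.2% on control feed, Cavendish and Fe'i, and that of gck was 2.76%, 37.3% and 4.71%. khk, ketohexokinase, which starts fructose breakdown, went the other way from gck, at 46.8 ± 3.97 on control feed, 27.5 ± 2.45 on Cavendish and 31.4 ± 3.23 on Fe'i. Both banana libraries lay below the control, at -0.75 (counting SE 0.09) and -0.56 (counting SE 0.09), with intervals apart from the control and differences short of 2-fold; the Cavendish ratio passed the threshold with TPM scaling, at -1.01. tkfc, the triokinase that acts 2 steps later on fructose, was at 29.7 ± 2.001, 21.8 ± 1.55 and 21.0 ± 1.77, in the same order of control over both banana libraries. Enterocyte and leukocyte markers were also highest in the control in summed level. Their part in the khk and tkfc levels was not tested.

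In the upper part of glycolysis, gpia, glucose phosphate isomerase, was level across the diets at 189 ± 9.31 on control feed, 196 ± 9.30 on Cavendish and 193 ± 9.84 on Fe'i, and its paralog gpib stayed at or below 0.132. The phosphofructokinases, which carry out the committed step, were low. pfkla, a liver-type gene, was at 4.35 ± 1.44 on control feed, 1.48 ± 0.670 on Cavendish and 2.29 ± 1.44 on Fe'i and was called lower in the Cavendish library at -1.11 (counting SE 0.28), with the widest error of any called sugar gene. This call was lost with a pseudocount of 5. pfklb was at 0.973, 1.45 and 1.34, and the muscle types pfkma and pfkmb at 0.175 or less. pfkpa, a platelet-type paralog outside the set, was the most abundant of the 6 genes at 5.86 ± 0.846 on control feed, 14.8 ± 1.28 on Cavendish and 3.57 ± 0.587 on Fe'i, and was called higher in the Cavendish library at 1.205 (counting SE 0.11). On Cavendish pfkla and pfkpa thus differed from the control in opposite directions. On Fe'i both ratios were negative, at -0.70 for pfkla and -0.59 for pfkpa, and neither was called. The sum over all 6 was 12.5 ± 1.84, 19.2 ± 1.56 and 8.93 ± 1.76.

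Aldolase splits fructose bisphosphate. aldoaa (chromosome 3, 39566999 to 39577052), of the muscle type in mammals, was at 242 ± 11.7 on control feed, 319 ± 14.5 on Cavendish and 297 ± 14.5 on Fe'i, higher in both banana libraries by less than 2-fold. aldocb, of the brain type, was at 11.9 ± 1.28 on control feed, 28.1 ± 2.04 on Cavendish and 9.94 ± 1.31 on Fe'i and was called higher in the Cavendish library at 1.17 (counting SE 0.09); the call was lost with TPM scaling (0.92) and with a pseudocount of 5 (0.97). aldoab was at 0.606, 1.47 and 0.306 and aldoca at 0.0712 or less. tpi1b, triose phosphate isomerase, was at 275 ± 13.4 on control feed, 206 ± 9.97 on Cavendish and 255 ± 13.2 on Fe'i, lowest in the Cavendish library by a ratio of -0.42. Its paralog tpi1a was at 0.887, 0.597 and 2.99 and was called higher in the Fe'i library, the only one in which it reached 1 FPKM, a call that a pseudocount of 5 or the 5 FPKM minimum ended.

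In the lower part of glycolysis 4 of 9 genes, gapdh, pgk1, pgam1a and eno3, lay within 1.5-fold of the control in both banana libraries. gapdh (chromosome 16, 17189839 to 17200120), glyceraldehyde phosphate dehydrogenase, was the most abundant gene of the set at 2089 ± 88.1 on control feed, 2512 ± 105 on Cavendish and 2767 ± 117 on Fe'i. Both banana libraries lay above the control, at 0.27 and 0.41, and their own intervals did not overlap the control's. Its paralog gapdhs, restricted to sperm in mammals, was at 90.4 ± 5.44 on control feed, 166 ± 8.48 on Cavendish and 58.3 ± 4.41 on Fe'i. It was highest in the Cavendish library and lowest in the Fe'i library, at 0.87 (counting SE 0.06) and -0.62 (counting SE 0.07) to the control, neither past the threshold. pgk1, phosphoglycerate kinase, at 84.4 ± 2.25, 94.4 ± 2.23 and 92.4 ± 2.72, and pgam1a, phosphoglycerate mutase, at 101 ± 5.79, 102 ± 5.66 and 103 ± 6.38, were nearly level across the diets. pgam1b was at 20.5 ± 1.34, 15.3 ± 1.07 and 13.2 ± 1.25 and pgam2, the muscle-type mutase outside the set, at 99.0 ± 6.54, 56.8 ± 4.30 and 57.6 ± 5.16; both were highest in the control.

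Enolase came mainly from eno3, the muscle-type gene of mammals, at 792 ± 34.7 on control feed, 677 ± 29.6 on Cavendish and 951 ± 41.9 on Fe'i. eno1a (chromosome 23, 22656477 to 22678882), the widely expressed alpha form, was at 62.5 ± 4.17 on control feed, 139.9 ± 6.89 on Cavendish and 51.0 ± 3.87 on Fe'i and was called higher in the Cavendish library at 1.15 (counting SE 0.06). Its share of eno1a and eno3 together was 7.31%, 17.1% and 5.09% on control feed, Cavendish and Fe'i. TPM scaling took the eno1a ratio to 0.88. For pyruvate kinase, the last step, pklr (chromosome 16, 54450407 to 54455573), the liver and red cell form, was at 262 ± 5.99 on control feed, 309.6 ± 6.03 on Cavendish and 547 ± 10.1 on Fe'i. The Fe'i value was called higher at 1.06 (counting SE 0.02), close to the threshold, and was at 0.93 with the deposited FPKM and 0.92 with TPM. Erythrocyte markers were at 295, 566 and 805 summed scaled FPKM over 9 genes. They and the liver, lysosome-rich enterocyte and egg markers were all highest in the Fe'i library. The part of these tissues in the pklr level was not tested. pkma, the muscle form, was at 93.8 ± 9.58 on control feed, 87.5 ± 9.38 on Cavendish and 62.0 ± 12.1 on Fe'i, lowest in the Fe'i library; its locus overlaps zgc:101723, at 31.4, 31.4 and 41.3 scaled FPKM, by 479 bases, so reads in that stretch cannot be assigned without strand.

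Of the 17 tested genes from glucose 6-phosphate to pyruvate, 2 were called higher and 1 lower on Cavendish (17.6%, median log2 ratio 0.16). On Fe'i 2 were called higher and 0 lower (11.8%, median 0.03). The rule called 7.31% and 6.72% of all tested genes. Of those called higher, aldocb, eno1a and tpi1a were minor genes of their step in every library and pklr was the leading one.

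The order of the lactate dehydrogenase genes differed between the Fe'i library and the others. ldha, the muscle-type subunit, was at 254 ± 11.7 on control feed, 263 ± 11.9 on Cavendish and 175 ± 8.79 on Fe'i, and ldhba, a heart-type subunit, at 46.5 ± 3.27 on control feed, 65.1 ± 3.95 on Cavendish and 64.7 ± 4.50 on Fe'i. ldhbb (chromosome 25, 3326885 to 3336587), the other heart-type paralog, was at 37.3 ± 4.34 on control feed, 63.9 ± 5.21 on Cavendish and 216 ± 12.8 on Fe'i. Its Cavendish value lay above the control at 0.76 (counting SE 0.10), short of the threshold, and its Fe'i value was called higher at 2.505 (counting SE 0.09). Of the summed FPKM of the 3 genes, ldhbb made up 11.04%, 16.3% and 47.4% on control feed, Cavendish and Fe'i, and ldha 75.2%, 67.1% and 38.4%. ldha thus led in the control and Cavendish libraries and ldhbb in the Fe'i library, while the sum was 337 ± 12.9, 392 ± 13.6 and 456 ± 16.2. The ldhbb call held under all 9 alternative settings. Liver, lysosome-rich enterocyte, erythrocyte and egg markers were also highest in the Fe'i library, and their part in the ldhbb level was not tested.

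**Figure D4:**
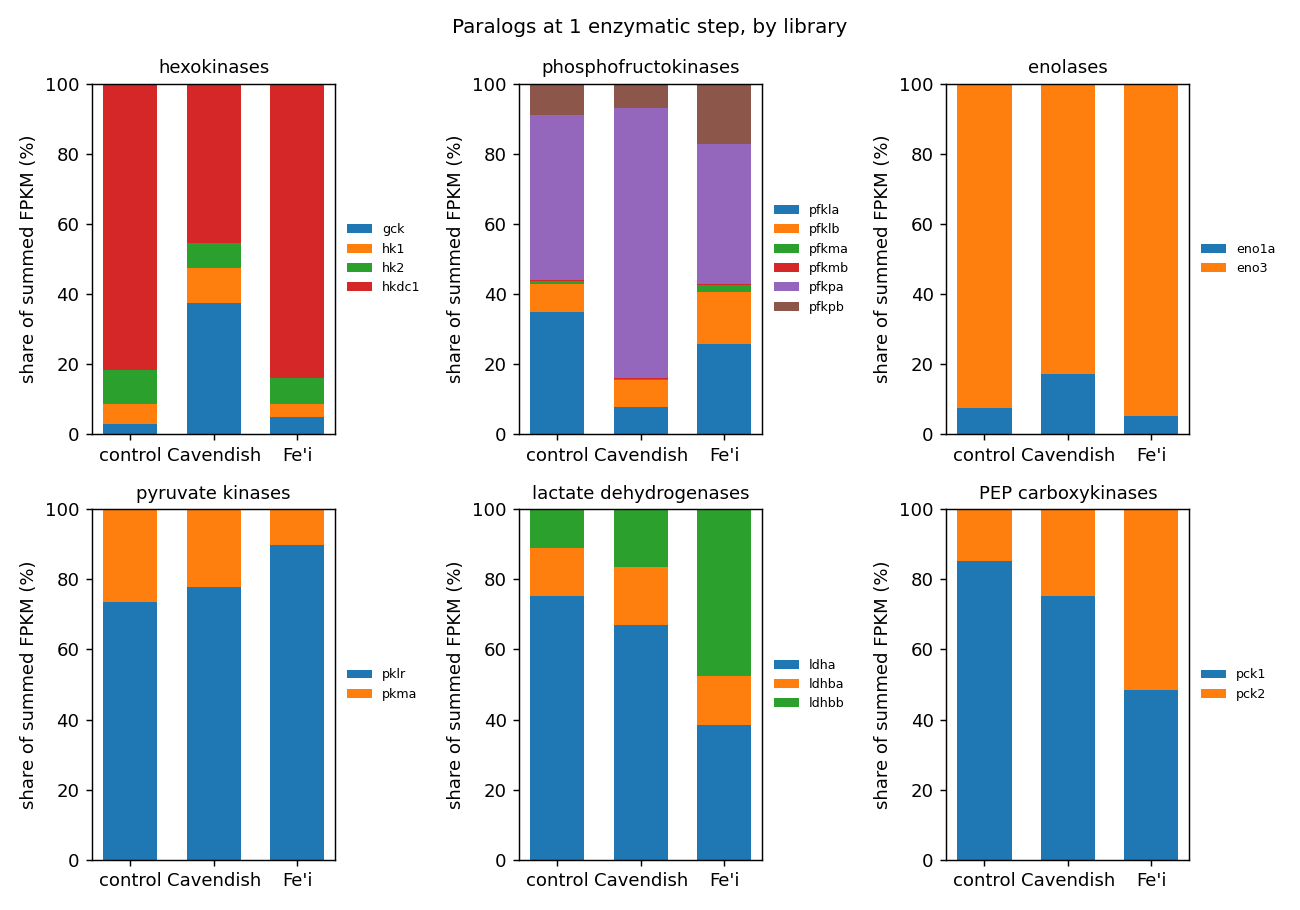
Share of each paralog in the summed FPKM of 6 enzymatic steps on control feed, Cavendish and Fe'i (stacked bars, 0 to 100%). The leading gene differs between libraries for lactate dehydrogenase, with ldhbb at 47.4% in the Fe'i library. For phosphoenolpyruvate carboxykinase, pck2 is at 51.7% there, where the intervals of pck1 and pck2 overlap.

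Among the gluconeogenesis genes the cytosolic phosphoenolpyruvate carboxykinase was lower on both banana diets. pck1 (chromosome 6, 60055168 to 60062097), which makes phosphoenolpyruvate from oxaloacetate and is induced by fasting in mammals, was at 473 ± 20.3 on control feed, 258 ± 11.3 on Cavendish and 111 ± 6.17 on Fe'i. None of the 3 intervals overlapped. The Fe'i value was called lower at -2.08 (counting SE 0.05), under all 9 alternative settings, and the Cavendish value lay at -0.87 (counting SE 0.04), short of the threshold but past it with TPM scaling (-1.14) and with TPM lacking pancreas and mitochondrial genes (-1.01). pck2, the mitochondrial form, was at 81.9 ± 2.297 on control feed, 84.6 ± 2.19 on Cavendish and 119 ± 3.23 on Fe'i, highest in the Fe'i library. The share of pck1 in the sum of both genes was 85.2%, 75.3% and 48.3%. The sum itself was 555 ± 20.4, 343 ± 11.5 and 231 ± 6.96 on control feed, Cavendish and Fe'i. Of 13 tested enterocyte markers 9 were also highest in the control, and alpi.2, slc15a1b, anpepb and cdx1b were not. The median log2 ratio of this list was -0.57 for Cavendish and -0.28 for Fe'i. The part of enterocyte content in the level of pck1 was not tested, nor in those of slc2a5, slc2a12 and g6pca.2, also highest in the control.

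Pyruvate carboxylase, the entry step, was low: pcxb was at 1.56 ± 0.262, 2.52 ± 0.313 and 2.72 ± 0.403 on control feed, Cavendish and Fe'i, and its paralog pcxa, outside the set, at 7.63 ± 0.635, 7.75 ± 0.649 and 13.7 ± 0.977. fbp1b (chromosome 5, 35458190 to 35462126), fructose bisphosphatase, was at 275 ± 13.2 on control feed, 265 ± 12.5 on Cavendish and 461 ± 21.5 on Fe'i. The intervals of Cavendish and control overlapped, and the Fe'i value was the highest at 0.75 (counting SE 0.05), short of 2-fold. The fbp1b locus overlaps that of erlin2 by 3781 bases, which is most of the fbp1b locus, so reads there cannot be assigned without strand. erlin2 was listed at 0.202 scaled FPKM or less, a level that rests on the same read assignment. fbp1a was at 10.9 ± 1.38, 8.20 ± 1.102 and 9.83 ± 1.49, with a ratio of -0.38 for Cavendish and -0.14 for Fe'i.

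Glucose 6-phosphatase, which releases free glucose, is encoded by neighbouring genes on chromosome 12, g6pca.1 (6023490 to 6033854) and g6pca.2 (6041575 to 6048286). The abundant g6pca.2 was at 269.8 ± 12.3 on control feed, 188 ± 8.55 on Cavendish and 171 ± 8.52 on Fe'i, lower in both banana libraries at -0.52 and -0.65. The scarce g6pca.1 was at 2.89 ± 1.15 on control feed, 4.60 ± 0.979 on Cavendish and 11.6 ± 2.202 on Fe'i and was called higher in the Fe'i library at 1.70 (counting SE 0.25), so that the neighbours differed in opposite directions. g6pca.1 made up 1.06%, 2.38% and 6.34% of their sum. If reads were shared between these paralogs, their split is uncertain. Liver, lysosome-rich enterocyte, erythrocyte and egg markers were also highest in the Fe'i library. Their part in the levels of g6pca.1, fbp1b and pcxa was not tested. slc37a4a, which carries glucose 6-phosphate to the enzyme, was at 37.2 ± 3.52, 28.6 ± 2.70 and 38.1 ± 3.77. Of the 7 gluconeogenesis genes 0 were called in the Cavendish library (median -0.05), and 1 was called higher and 1 lower on Fe'i (28.6%, median 0.54). The rule called 7.31% and 6.72% of all tested genes in these libraries.

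Fructose 2,6-bisphosphate switches cells between glycolysis and gluconeogenesis, and the PFKFB enzymes make and remove it. pfkfb3 (chromosome 4, 25472505 to 25485404), known in mammals for strong kinase activity, was at 24.4 ± 2.56 on control feed, 53.7 ± 3.85 on Cavendish and 14.5 ± 2.09 on Fe'i. No intervals overlapped, and the Cavendish value was called higher at 1.11 (counting SE 0.09); the call was lost with no scaling (0.98), TPM (0.85) or TPM lacking pancreas and mitochondrial genes (0.98), and just missed the threshold with a pseudocount of 5 (0.9999). pfkfb1, a liver-type form, was at 12.1 ± 1.41 on control feed, 8.74 ± 1.105 on Cavendish and 11.8 ± 1.59 on Fe'i. Outside the set, pfkfb4a was at 56.8 ± 3.49, 34.5 ± 2.36 and 35.2 ± 2.80, highest in the control, and pfkfb4b at 2.49 ± 0.734, 6.37 ± 1.94 and 1.86 ± 0.885, called higher in the Cavendish library.

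Levels were also summed over the genes of the set at each step. Of 19 steps or carrier classes of the set, 11 lay within 1.5-fold of the control in both banana libraries, among them the slc2a carriers, enolase and lactate dehydrogenase. The sums that differed 2-fold or more from the control were glucose phosphorylation by gck, hk1 and hk2 in the Cavendish library, at 8.06 ± 0.779, 39.4 ± 2.02 and 7.61 ± 0.925 on control feed, Cavendish and Fe'i, and phosphoenolpyruvate carboxykinase in the Fe'i library. With hkdc1 included, the hexokinase sum was 44.5 ± 1.75, 72.2 ± 2.44 and 48.1 ± 2.12. The phosphofructokinase sum of the set was 5.50 ± 1.49, 3.06 ± 0.771 and 3.82 ± 1.52, lowest on Cavendish. With pfkpa and pfkpb included it was 12.5 ± 1.84, 19.2 ± 1.56 and 8.93 ± 1.76, highest on Cavendish. For pyruvate carboxylase, pcxa outside the set made up 83.0%, 75.4% and 83.4% of the sum with pcxb. Pyruvate kinase summed to 355 ± 11.3, 397 ± 11.2 and 609 ± 15.8 and fructose bisphosphatase to 286 ± 13.3, 273 ± 12.5 and 471 ± 21.6, each highest in the Fe'i library. Of the 14 steps with several genes of the set, 11 had the same leading gene in every library. The exceptions were glucose phosphorylation, lactate dehydrogenase and phosphoenolpyruvate carboxykinase. For the last, the intervals of pck1 and pck2 overlapped in the Fe'i library. When hkdc1 was counted in glucose phosphorylation, it led in every library, at 81.9%, 45.5% and 84.2% on control feed, Cavendish and Fe'i. Phosphofructokinase was among the 11, though pfkla and pfklb made up 48.5% and 47.3% of its sum in the Cavendish library. When pfkpa and pfkpb were counted, pfkpa had the largest share in every library, at 47.0%, 77.2% and 39.9%.

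Set directly against the Cavendish library, the Fe'i library had 5 sugar genes called higher and 9 lower. These are 11.6% and 20.9% of those tested, where the rule called 4.22% and 4.49% of all genes. The limits given for the shares against the control hold here too, and these shares were not tested against the background. The 5 called higher were slc2a8, slc2a11a, tpi1a, ldhbb and g6pca.1, with ldhbb at 1.74 (counting SE 0.07) and g6pca.1 at 1.17 (counting SE 0.18). The 9 called lower were gck, hk1, aldocb, gapdhs, eno1a, pck1, pfkfb3, slc2a3b and slc2a6. gck had the lowest ratio, at -3.098 (counting SE 0.14), followed by pfkfb3 at -1.82 (counting SE 0.11), hk1 at -1.52 (counting SE 0.11), gapdhs at -1.50 (counting SE 0.06), eno1a at -1.44 (counting SE 0.06) and aldocb at -1.41 (counting SE 0.10). In all of these but pck1 the Cavendish library was the highest of the 3. Several marker lists also had tested genes called lower in this comparison. These were exocrine pancreas (16 of 18), endocrine pancreas (5 of 8), skeletal muscle (9 of 10), smooth muscle (6 of 10) and neuron (2 of 4). Called higher were 9 of 20 liver, 8 of 9 lysosome-rich enterocyte and 12 of 12 egg markers. The part of these tissues in the sugar genes was not tested. slc2a6, at 1.002, 2.23 and 0.611 scaled FPKM, was called at -1.003 and lost the call with the deposited FPKM, TPM, the 5 FPKM minimum or a pseudocount of 5.

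The wider pathway was read from 7 lists of genes outside the set. For scale, the rule called 7.31% of all tested genes on Cavendish and 6.72% on Fe'i, counting both directions. Of 15 tested isozymes and partners of the same steps, 2 were called higher in the Cavendish library (pfkpa and pfkfb4b, 13.3%, median -0.14). In the Fe'i library 1 was called higher (pfkfb2b, 6.67%, median 0.03), with 0 lower in either. pfkfb2b was at 1.74 ± 0.654, 1.203 ± 3.90 and 5.40 ± 1.04, and its Cavendish interval was wide. Glycogen and galactose genes had 3 of 21 (14.3%) called higher in each banana library and 0 lower (medians -0.08 and 0.17). pygl, the liver glycogen phosphorylase, was at 6.50 ± 0.789 on control feed, 19.7 ± 1.45 on Cavendish and 27.0 ± 2.08 on Fe'i and gys2, the liver glycogen synthase, at 1.63 ± 0.425 on control feed, 4.99 ± 0.699 on Cavendish and 11.3 ± 1.35 on Fe'i. Both ran in the order of the liver markers and of the erythrocyte markers, lowest in the control and highest in the Fe'i library. The part of these tissues in the pygl and gys2 levels was not tested. pygmb, a muscle-type phosphorylase, was at 2.11 ± 0.887, 5.69 ± 1.36 and 2.13 ± 1.06 and was called higher in the Cavendish library, and ugp2a, which makes UDP-glucose, was called higher in the Fe'i library at 1.63, 3.14 and 4.34.

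Of 25 tested genes around pyruvate and lactate, 4% were called in the Cavendish library and 8% in the Fe'i library (medians -0.10 and -0.07). The rule called 7.31% and 6.72% of all tested genes. On Cavendish 1 was called higher, the lactate exporter slc16a3 at 0.616 ± 0.447, 5.89 ± 2.45 and 0.729 ± 0.598. In the Fe'i library 2 were called lower. These were the pyruvate dehydrogenase kinases pdk2a, at 16.9 ± 0.998, 9.04 ± 0.677 and 7.18 ± 0.758, and pdk2b, at 39.9 ± 3.14, 35.4 ± 2.33 and 19.01 ± 1.82, which hold back the entry of pyruvate into the citric acid cycle. Of 10 tested genes of the pentose phosphate and polyol paths and 5 tested sugar carriers outside the slc2a family other than slc5a1 (slc5a2, slc5a9, slc5a11, slc45a4 and slc50a1), 0 were called in either banana library (pentose phosphate medians 0.01 and -0.19; carrier medians 0.09 and 0.29).

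Digestion of starch and disaccharides was covered by 3 matched genes of 8 listed symbols (medians 0.06 and 0.16). On Cavendish 1 was called higher, amy2a, and 1 lower, lct (66.7%), and on Fe'i 0 were called. The rule called 7.31% and 6.72% of all tested genes. amy2a, pancreatic amylase, was at 503 ± 20.1 on control feed, 2769 ± 115 on Cavendish and 598 ± 24.5 on Fe'i and is also a marker of the exocrine pancreas. lct, named for lactase, was at 20.9 ± 1.24 on control feed, 9.64 ± 0.687 on Cavendish and 10.9 ± 0.872 on Fe'i. Enterocyte and leukocyte markers were also highest in the control in summed level, and their part in the lct level was not tested. treh, trehalase, was at 41.1 ± 2.59, 43.0 ± 2.54 and 46.0 ± 3.13. Of 30 tested regulators of sugar and fasting responses, 6.67% were called in the Cavendish library and 10% in the Fe'i library (medians 0.11 and -0.03). Those shares stand beside 7.31% and 6.72% of all tested genes. On Cavendish 2 were called higher, igfbp1a and fgf21. The level of fgf21 was 3.40 ± 1.34 on control feed, 8.03 ± 1.95 on Cavendish and 6.53 ± 2.17 on Fe'i. On Fe'i 1 was called higher, igfbp1a, and 2 lower, hif1al and irs2a. igfbp1a, a binding protein for insulin-like growth factors that the liver makes, was at 19.6 ± 1.83 on control feed, 79.7 ± 4.49 on Cavendish and 43.6 ± 3.37 on Fe'i. hif1al, a paralog of the hypoxia-inducible factor, was at 32.3 ± 2.09 on control feed, 23.6 ± 1.55 on Cavendish and 8.18 ± 0.965 on Fe'i. txnipa, whose mammalian counterpart is induced by glucose, was at 64.1 ± 2.28 on control feed, 106 ± 2.75 on Cavendish and 52.0 ± 2.39 on Fe'i and was called lower in the Fe'i than in the Cavendish library, as was egln3, an oxygen-sensing hydroxylase, at 31.6 ± 2.48, 38.8 ± 2.72 and 17.3 ± 2.09.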

How the data were processed

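RNA was measured in 3 libraries, 1 per diet, grouped by the treatment label of each sample. FastQC 0.11.5, TopHat2 2.1.0 and the GRCz11 build are named in the submitters' processing notes. The files hold Cufflinks FPKM with a 95% interval, per the file headers; the Cufflinks version, options and strand setting were not given in the sources used here.

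Rows were summed by gene identifier, identifiers with a row of too many fragments were left out (none among the sugar genes), and FPKM were scaled per library by the median ratio to a geometric mean library, across genes that reached 1 FPKM in every library (control 1.06, Cavendish 0.969, Fe'i 0.965). The squared ratio of FPKM to SD gave effective fragments. The call rule was tested on simulated data that held counting error alone. Differences between fish or in tissue content were not simulated, so that test cannot gauge them. No count test was run, because FPKM hold no counts and 48.0% to 49.0% of low genes (under 20 effective fragments, tolerance 0.05) came out whole. Named are all sugar genes at 5 FPKM or more, called ones below that, and the called genes of each list of other pathway genes. Isozymes, carriers and enzymes of these lists that were not called are named to complete a step. Of 322 symbols in the pathway and marker lists, 288 matched. The members and lists were chosen with earlier results of these data known. The alternatives covered scaling, pseudocount, filter, fold and interval. Python 3.11.15, numpy 2.4.6, pandas 2.3.3 and matplotlib 3.10.9 were used. Sequences were not analysed here, and 1 isozyme was left out of its list and is not analysed here.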

Additional observations from a re-analysis of the deposited data

How the results depend on the processing

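Of 29 calls of sugar genes over the 3 comparisons, 11 held under all 9 alternative settings and 0 reversed: gck in the Cavendish library, ldhbb, g6pca.1 and pck1 in the Fe'i library against the control, and gck, aldocb, gapdhs, eno1a, pck1, pfkfb3 and ldhbb between the banana libraries. Scaling kept 23 of the 29. A pseudocount of 5 lost 16 calls, among them aldocb and pfkfb3, whose ratios lay near the threshold: it left 2 higher and 0 lower for Cavendish against control, 3 higher and 1 lower for Fe'i against control, 1 higher for Fe'i against Cavendish, and 3, 3 and 3 calls in the lists of other pathway genes (10, 9 and 9 as reported). A minimum of 5 FPKM left 0 lower for Cavendish and 3 higher for Fe'i against Cavendish. TPM scaling gave 2 higher and 3 lower for Cavendish against control and 3 steps that differed 2-fold or more in place of 1; leaving out pancreas and mitochondrial genes first gave 2 lower. Over all tested genes the median log2 ratio went from 0.02 to -0.19 for Cavendish and from 0.01 to -0.10 for Fe'i under TPM, and to -0.08 and -0.09 with no scaling. A threshold of 1.5-fold gave 11 higher and 3 lower for Cavendish, 8 lower for Fe'i, and 21, 22 and 25 calls in the other lists. No replicate could be left out with 1 library per diet, and no paired analysis was possible because each group has 1 library. Members under about 5 FPKM are limited by counting: the lowest tested one rested on 6.00 effective fragments in the Fe'i library.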
